A study of Homo sapiens with 28 samples.

Results

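SIX3, SIX6, RAX, LHX2, HESX1, FEZF1 and VAX1 are transcription factor genes of the eye field and the anterior forebrain. They were taken by name from the deposited expression table, 7 of its 58219 genes, and all 7 were among the 27912 genes tested. They were followed in H9, a widely used line of human embryonic stem cells, from the undifferentiated state into neural differentiation. The study deals with SOX1, a transcription factor of early neural cells, and its title concerns the regional identity of the progenitors.

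SOX1-/- cells (KO) and wild-type cells (WT) were each collected as embryonic stem cells (ES, day 0) and at day 4 and day 8 under one of the labels IWP2, CT0.4 or CT1.0. The compound IWP2 blocks WNT secretion. The labels do not say what CT stands for or give a unit for the number after it. There were 14 groups of 2 libraries, 28 in all, numbered 26 and 48 in KO and 1 and 2 in WT and read here as lines. All carry the H9 background, and the labels do not describe how SOX1 was altered. The labels do not say that lines were separate cultures or clones, so p-values measure only the spread between these libraries. Levels are in TPM, an abundance scaled by transcript length and by the library's total. Fold changes are differences of log2(TPM + 1), so those of genes near 0 TPM come out too small, and "called" means an adjusted p under 0.05 in limma over all genes tested.

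In the vertebrate embryo the front of the neural plate forms where WNT signalling is low. SIX3 is known to repress WNT genes there and, with RAX, SIX6 and LHX2, to mark the eye field from which both optic vesicles grow. HESX1, a repressor of the paired-like homeobox class, acts in the forebrain and the pituitary, FEZF1, a zinc finger repressor, acts in the forebrain and the olfactory system, and VAX1, a homeobox factor, acts later in the optic stalk and the ventral forebrain.

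SOX1 lay between 0.0238 and 3.08 TPM in KO libraries and between 0.177 and 98 TPM in WT libraries, with the highest WT values in CT1.0. In WT IWP2 cultures of day 4 it was only 0.907 and 0.99 TPM. The 4 WT libraries of CT0.4 and CT1.0 at day 4 stood apart, with 17694 to 18233 genes at 1 TPM or more, against 18876 to 20338 in the other 24 libraries. Rescaling by median ratios moved the median log2 change of all genes by -0.18 for KO against WT in CT1.0 at day 4. Summed pluripotency markers (POU5F1, NANOG, LIN28A, DPPA4, TDGF1, ZFP42) were 483 to 1109 TPM at days 4 and 8 and 3939.8 to 4109 TPM in ES. At days 4 and 8 only 3 or 4 of these 6 genes reached 1 TPM in a group, against all 6 in ES. NANOG was under 0.1 TPM in WT CT1.0 at day 4 and in KO CT0.4 at day 8. Summed neural progenitor markers (SOX2, PAX6, NES, SOX3, CDH2, HES5) were 554 to 1639 TPM at days 4 and 8 and 245 to 319 TPM in ES. Mesendoderm markers summed to 4.2 TPM or less in every library, with 5 of the 6 markers found by name, and pigment cell markers (MITF, TYR, PMEL, DCT, TYRP1) to 88.9 to 347 TPM, with TYR at 0.469 TPM or less. Of these 5 pigment cell markers, 1 to 3 reached 1 TPM in a group.

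The genes lie on 7 different chromosomes, given here from GENCODE 29 on hg38. SIX3 (ENSG00000138083.4) spans chr2:44941898-44946077 on the plus strand and LHX2 (ENSG00000106689.10) chr9:124001670-124033301 on the plus strand. SIX6 (ENSG00000184302.6), at chr14:60508951-60512850 on the plus strand, lies within an intron of C14orf39, a gene of the minus strand, and overlaps 0 of its exons. RAX (ENSG00000134438.9) spans chr18:59267035-59274086, VAX1 (ENSG00000148704.12) chr10:117128521-117138301 and FEZF1 (ENSG00000128610.11) chr7:122301394-122310691, all on the minus strand. HESX1 (ENSG00000163666.8 in the deposited table) spans chr3:57197838-57227606 on the minus strand in GENCODE 29, whose record of it is another version.

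Promoter windows of 250 bases before to 50 after the start were taken from RefSeq (GRCh38.p14), which held 8 windows for 6 of the 7 genes and none for SIX3. Both strands were searched for CTTTGAT, the site of the TCF/LEF factors of WNT signalling, the OTX site TAATCC, the homeodomain site TAATTA, and the SOX sites ACAAAG and ACAATG. Matches, in capitals, were found in the SIX6 window and in the window of the downstream HESX1 start. The RAX and FEZF1 windows, which held none, are shown because RAX is an eye field gene that marked the IWP2 cultures and FEZF1 was called most often between genotypes.
SIX6, chr14:60508896-60509195, plus strand: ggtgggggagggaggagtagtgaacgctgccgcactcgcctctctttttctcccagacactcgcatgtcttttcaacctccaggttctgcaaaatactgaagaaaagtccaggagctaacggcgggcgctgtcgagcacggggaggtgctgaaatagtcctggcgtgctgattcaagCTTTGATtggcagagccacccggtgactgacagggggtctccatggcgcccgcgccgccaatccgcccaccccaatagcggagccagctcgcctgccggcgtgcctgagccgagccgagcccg
HESX1, chr3:57199929-57200228, minus strand: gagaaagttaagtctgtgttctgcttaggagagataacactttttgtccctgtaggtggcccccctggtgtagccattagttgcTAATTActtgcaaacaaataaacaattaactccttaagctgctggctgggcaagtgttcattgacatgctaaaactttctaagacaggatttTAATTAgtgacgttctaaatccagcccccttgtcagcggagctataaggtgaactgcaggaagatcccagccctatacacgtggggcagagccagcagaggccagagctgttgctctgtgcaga
RAX, chr18:59273405-59273704, minus strand: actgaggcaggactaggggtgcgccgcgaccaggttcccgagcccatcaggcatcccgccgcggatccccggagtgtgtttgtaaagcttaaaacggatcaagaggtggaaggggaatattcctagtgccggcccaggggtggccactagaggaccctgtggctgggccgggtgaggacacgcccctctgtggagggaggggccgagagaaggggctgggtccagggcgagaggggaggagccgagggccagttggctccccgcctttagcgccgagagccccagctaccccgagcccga
FEZF1, chr7:122304701-122305000, minus strand: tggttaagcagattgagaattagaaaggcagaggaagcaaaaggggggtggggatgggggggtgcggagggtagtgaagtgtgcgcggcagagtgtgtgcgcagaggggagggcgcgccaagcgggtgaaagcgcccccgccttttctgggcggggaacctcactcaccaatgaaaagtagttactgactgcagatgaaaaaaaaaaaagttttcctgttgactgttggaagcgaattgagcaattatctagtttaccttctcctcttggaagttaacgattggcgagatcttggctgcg
The SIX6 window holds CTTTGAT from position -73, counted from the start site, and 2.62% of all 35116 windows hold that motif on either strand. The HESX1 window holds TAATTA from positions -166 and -74, and 4.84% of all windows hold it. TAATCC is in 6.36% of all windows. The SOX site ACAAAG is in 16.1% and the other, ACAATG, in 10.8%. These are matches of letters and not sites shown to be bound.

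**Figure D1:**
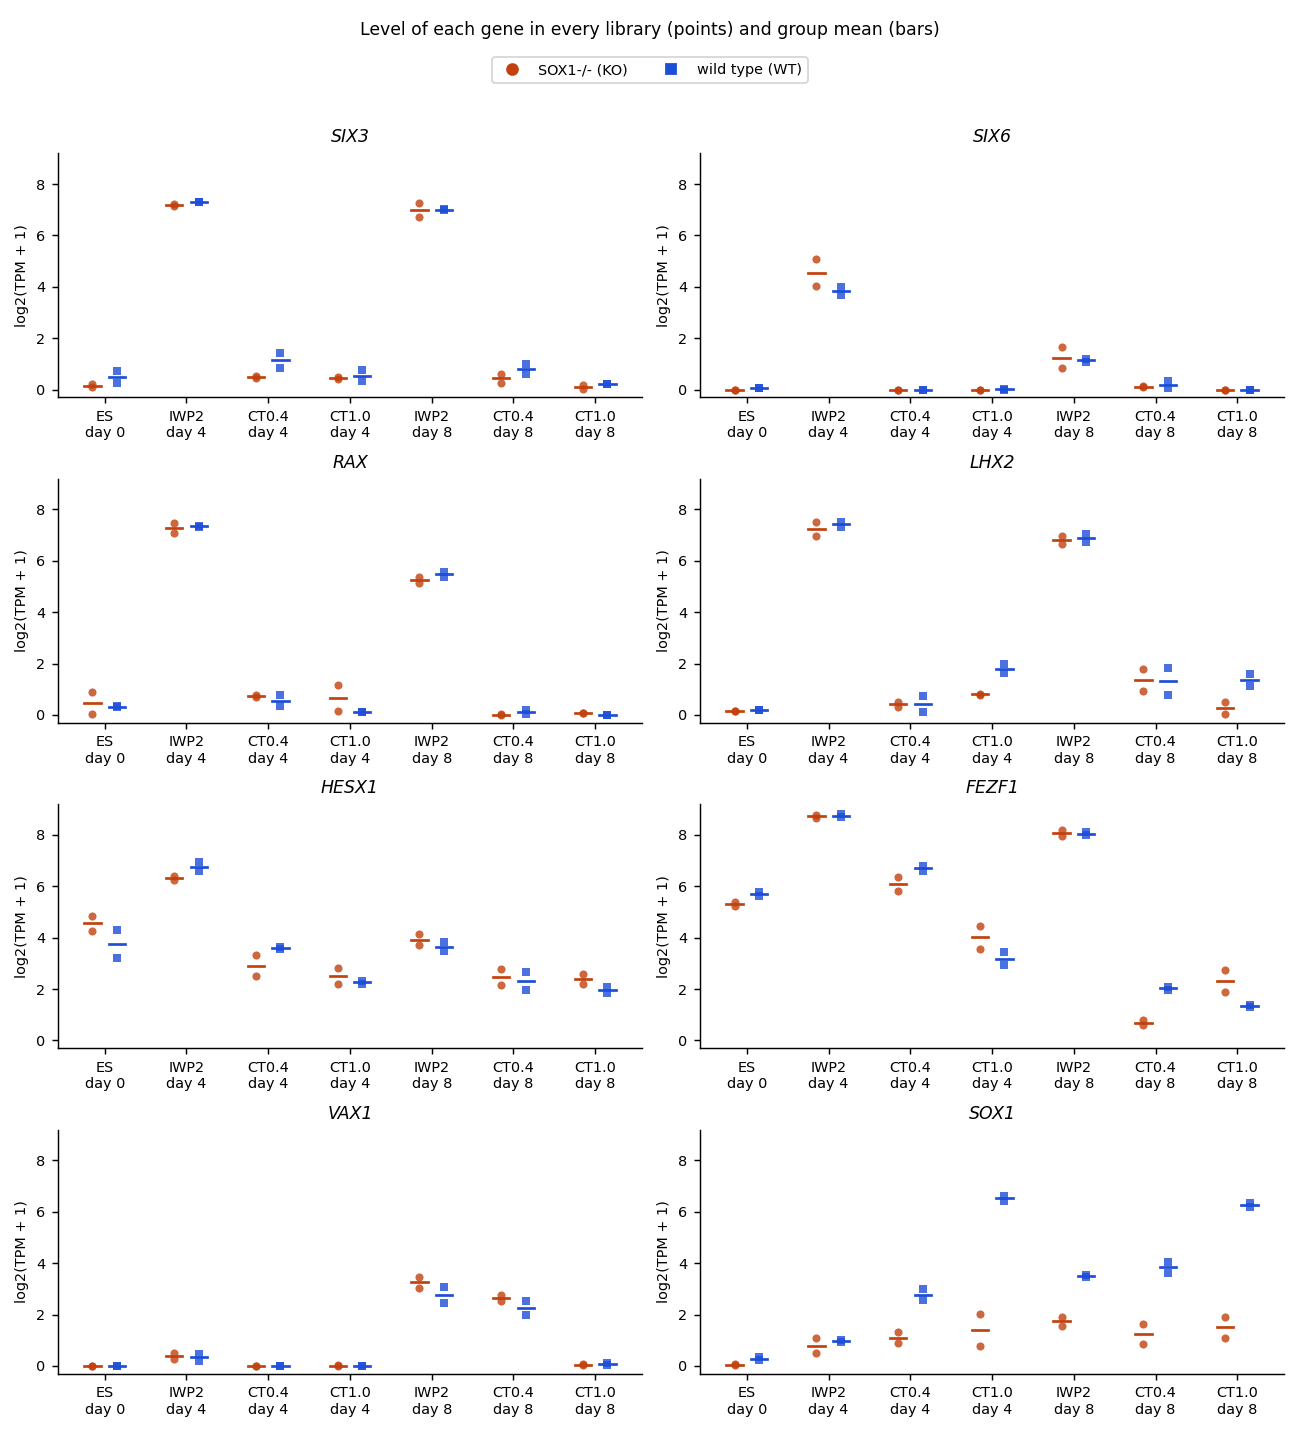
Level of each gene, as log2(TPM + 1), in every library of the 7 cultures, with KO lines (circles) left of WT lines (squares) and a bar at each group mean; the last panel is SOX1. SIX3, RAX and LHX2 stand high in IWP2, and SIX6 in IWP2 at day 4. FEZF1 and HESX1 are also present in ES, and VAX1 appears at day 8 in IWP2 and CT0.4.

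By group mean, the genes other than VAX1 were highest in IWP2 at day 4 and VAX1 in IWP2 at day 8. SIX3 reached 148 and 139 TPM in KO lines 26 and 48 and 157 and 156 TPM in WT lines 1 and 2 there. RAX reached 136 and 178 TPM in KO and 165 and 159 TPM in WT, and LHX2 125 and 180.2 TPM in KO and 182 and 160.3 TPM in WT. FEZF1 was the most abundant of the 7, at 403 and 440.4 TPM in KO and 444 and 420.2 TPM in WT, above 99.0% of the genes tested in KO line 26. HESX1 stood at 75.6 and 84.1 TPM in KO and 121 and 96.3 TPM in WT, and SIX6 at 32.6 and 15.4 TPM in KO and 11.8 and 14.8 TPM in WT. SIX6 in KO line 26 stood above the other 3 libraries, which ran from 11.8 to 15.4 TPM. VAX1 was nearly silent, at 0.402 and 0.196 TPM in KO and 0.156 and 0.4 TPM in WT. Together the 7 genes held 921 and 1037 TPM in KO and 1080.2 and 1007 TPM in WT.

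Outside IWP2 the genes fell into 3 kinds by level. SIX3 (0.027 to 1.66 TPM), RAX (0 to 1.27 TPM), LHX2 (0.0239 to 2.92 TPM) and SIX6 (0 to 0.245 TPM) were low in all 20 other libraries, ES included. FEZF1 and HESX1 were already present in ES. FEZF1 had 41.3 and 37 TPM in KO ES and 53.6 and 47.8 TPM in WT ES, and HESX1 had 28.1 and 18 TPM in KO ES and 8.31 and 18.7 TPM in WT ES. VAX1 was listed at 0 in all 4 ES libraries and was found above 1 TPM only at day 8, in IWP2 and CT0.4. Over the 14 group means, log2(TPM + 1) of SIX3 correlated with that of RAX and of LHX2 at a Pearson r of 0.98 each and with that of VAX1 at 0.43. The r of FEZF1 with SIX3 was 0.79 and that of HESX1 with FEZF1 was 0.81. These points share libraries and the split of IWP2 against the rest, and they are given as a description.

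From ES to IWP2 at day 4, the 6 genes other than VAX1 were called higher in KO and in WT. Of all genes tested, 19.4% were called higher in KO and 20.3% in WT. SIX3, RAX and SIX6 passed the filter of 1 TPM in at least 2 libraries only through IWP2 libraries. For them a higher level in IWP2 than elsewhere was largely set in advance, so the shares of all genes are no even reference. In KO, SIX3 rose by a log2 fold change of 7.03 (SE 0.23, adjusted p = 7.33e-13) and in WT by 6.80 (SE 0.23, adjusted p = 1.11e-12). LHX2 rose by 7.09 in KO and 7.23 in WT, and RAX by 6.81 in KO and 7.02 in WT, each from under 1 TPM in ES. FEZF1 rose by 3.40 in KO and 3.07 in WT from its level in ES. HESX1 rose by 1.78 in KO and 3.01 in WT, and the KO call was lost without line 48 (adjusted p = 0.076). SIX6 rose by 3.75 in WT and was called higher in KO, where it was listed at 0 in both ES libraries. VAX1 was not called (0.37 in KO, adjusted p = 0.243, and 0.35 in WT, adjusted p = 0.274). These are bulk cultures, in which fewer cells of a type and less RNA per cell cannot be told apart.

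**Figure D2:**
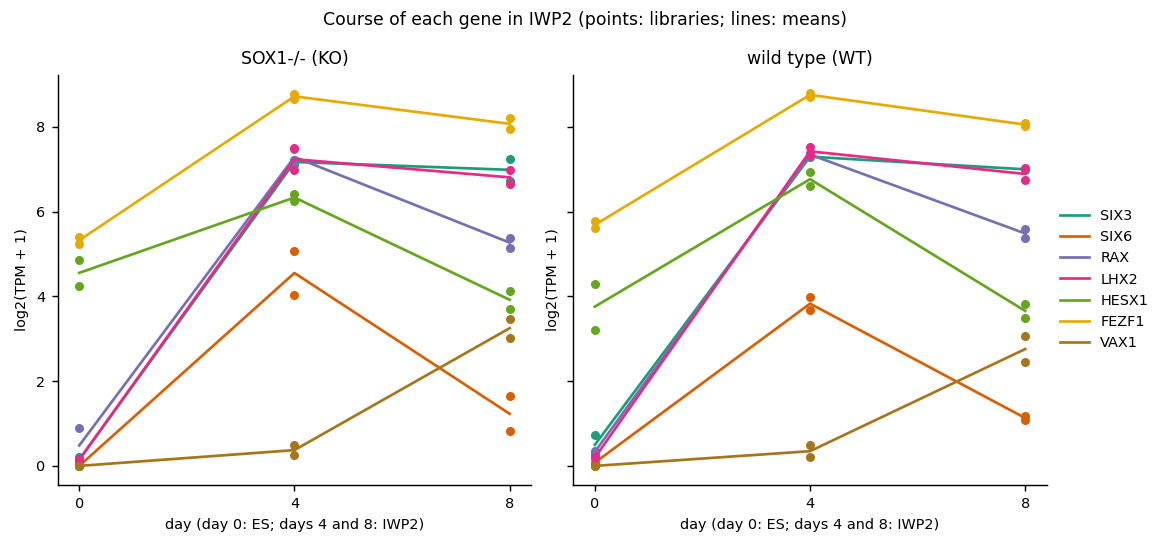
Course of the 7 genes in ES (day 0) and in IWP2 at days 4 and 8, as log2(TPM + 1), in KO (left) and WT (right); points are libraries and lines join group means. SIX3, LHX2 and FEZF1 are not called between days 4 and 8, RAX, HESX1 and SIX6 drop, and VAX1 appears.

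From day 4 to day 8 in IWP2 the genes parted. At day 8 SIX6 held 2.12 and 0.763 TPM in KO and 1.12 and 1.26 TPM in WT, and was called lower than at day 4 in both genotypes. Its log2 fold change was -3.33 in KO (SE 0.28, adjusted p = 8.83e-07) and -2.70 in WT (SE 0.28, adjusted p = 8e-06). RAX, at 34.6 and 40.8 TPM in KO and 40.9 and 46.9 TPM in WT, changed by -2.02 in KO (adjusted p = 0.000194) and by -1.86 in WT (adjusted p = 0.000352). HESX1, at 12.1 and 16.5 TPM in KO and 13.2 and 10.2 TPM in WT, changed by -2.42 in KO (adjusted p = 0.000329) and by -3.11 in WT (adjusted p = 2.63e-05). All 4 day 8 libraries lay below all 4 day 4 libraries for each of these genes. The same held for FEZF1, which was not called, at 245 to 294 TPM at day 8 and 403 to 444 TPM at day 4. VAX1 went the other way, with 10.1 and 7.16 TPM in KO and 4.46 and 7.38 TPM in WT at day 8, a rise of 2.88 in KO (adjusted p = 5.03e-07) and of 2.41 in WT (adjusted p = 3.47e-06).

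SIX3, LHX2 and FEZF1 were not called between the days. SIX3 had 151 and 105 TPM in KO and 126 and 128 TPM in WT at day 8, with a log2 fold change of -0.18 in KO (95% interval -0.67 to 0.30) and -0.30 in WT (-0.78 to 0.18). FEZF1 had 294 and 245 TPM in KO and 257 and 273 TPM in WT, with -0.65 in KO (adjusted p = 0.149) and -0.70 in WT (adjusted p = 0.0913). LHX2 had 99 and 125 TPM in KO and 130.5 and 106 TPM in WT, with -0.43 in KO (adjusted p = 0.513) and -0.53 in WT (adjusted p = 0.347). The counts were 1 of 7 called higher and 3 of 7 called lower in each genotype. Over all genes, 6.87% were called higher and 2.85% lower in KO, and 8.97% higher and 4.85% lower in WT. The RAX calls were lost with a pseudocount of 0.1 (adjusted p = 0.115 in KO and 0.123 in WT) and, in WT, without line 1 (0.116) or line 2 (0.0901). FEZF1 in WT was called lower without KO line 26 (adjusted p = 0.0165) or KO line 48 (0.0164).

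At day 4, CT0.4 cultures held far less of the eye field genes than IWP2 cultures. SIX3 had 0.347 and 0.45 TPM in KO CT0.4 and 0.807 and 1.66 TPM in WT CT0.4, RAX 0.608 and 0.719 TPM in KO and 0.694 and 0.263 TPM in WT, and LHX2 0.226 and 0.439 TPM in KO and 0.0738 and 0.682 TPM in WT. SIX6 was listed at 0 in all 4. FEZF1 was the exception in size, at 81.5 and 55.9 TPM in KO CT0.4 and 95.7 and 111 TPM in WT CT0.4. HESX1 had 9.12 and 4.63 TPM in KO CT0.4 and 10.8 and 11.4 TPM in WT CT0.4. CT0.4 against IWP2, 6 of 7 genes were called lower in KO, where 2.53% of all genes were. In WT 6 of 7 were called lower, where 10.6% of all genes were. SIX3, RAX and SIX6 passed the filter only through IWP2 libraries, so this direction was largely set in advance for them. The log2 fold changes ran from -6.83 (LHX2) to -2.62 (FEZF1) in KO and from -7.00 (LHX2) to -2.06 (FEZF1) in WT, SIX6 aside because it was listed at 0. FEZF1 in WT was no longer called without line 1 (adjusted p = 0.0916).

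In CT1.0 at day 4, FEZF1 in both genotypes lay below its levels in CT0.4, and HESX1 did so in WT while its KO libraries overlapped. KO CT1.0 was not tested against KO CT0.4. FEZF1 had 20.9 and 10.9 TPM in KO CT1.0 and 9.77 and 6.69 TPM in WT CT1.0, and HESX1 6.1 and 3.59 TPM in KO and 3.97 and 3.6 TPM in WT. LHX2 had 0.778 and 0.722 TPM in KO CT1.0 and 2.92 and 2.09 TPM in WT CT1.0. The other eye field genes were at or under 1.27 TPM, with SIX3 at 0.32 and 0.41 TPM in KO and 0.69 and 0.254 TPM in WT. RAX had 0.126 and 1.27 TPM in KO and 0.0806 and 0.0796 TPM in WT. CT1.0 against IWP2, the same count of 6 of 7 was called lower, with 8.54% of all genes lower in KO and 17.2% in WT. RAX differed by -6.61 in KO (SE 0.29, adjusted p = 3.64e-10) and by -7.24 in WT (SE 0.29, adjusted p = 1.25e-10), and SIX3 by -6.73 in KO and -6.76 in WT. FEZF1 differed by -4.71 in KO and -5.57 in WT, and VAX1 was not called. CT0.4 and CT1.0 were compared with the same IWP2 libraries, so these counts are not independent. The limit that the filter sets for SIX3, RAX and SIX6 holds here too.

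WT CT1.0 against WT CT0.4 at day 4, 1 of 7 genes was called higher and 2 of 7 lower, with 2.00% and 4.47% of all genes. FEZF1 (-3.51, SE 0.26, adjusted p = 6.5e-07) and HESX1 (-1.34, SE 0.36, adjusted p = 0.0333) were lower and LHX2 higher (1.37, SE 0.34, adjusted p = 0.0188). The FEZF1 call held without each line in turn. The LHX2 call was lost without WT line 1 (0.88, adjusted p = 0.492), WT line 2 (1.87, 0.126), KO line 26 (0.057) or KO line 48 (0.0575). HESX1 was likewise lost without WT line 1 (-1.44, 0.3), WT line 2 (-1.25, 0.42), KO line 26 (0.0573) or KO line 48 (0.0571).

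Against WT ES, WT CT0.4 at day 4 had 2 of 7 genes called higher, with 12.2% of all genes, namely FEZF1 (1.01, adjusted p = 0.00689) and SIX3 (0.63, adjusted p = 0.0453). Each FEZF1 level in WT CT0.4 was above both in WT ES, but the call was lost without WT line 1 (1.20, adjusted p = 0.134) or line 2 (0.82, 0.303). SIX3 was under 2 TPM throughout, and its call was lost without line 1 (0.164), line 2 (0.231), KO line 26 (0.0895) or KO line 48 (0.0892), and with no filter (0.0572). WT CT1.0 at day 4 had LHX2 called higher than in WT ES (1.60, adjusted p = 0.00119), with 10.2% of all genes, and FEZF1 (-2.50, adjusted p = 1.08e-06) and HESX1 (-1.50, adjusted p = 0.00371) called lower, with 20.8%. The LHX2 call was lost without WT line 1 (1.44, adjusted p = 0.0536) and that of HESX1 without WT line 2 (-0.91, adjusted p = 0.297). Relative to ES, FEZF1 was thus higher in WT IWP2 and WT CT0.4 and lower in WT CT1.0 at day 4.

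At day 8 the CT1.0 and CT0.4 cultures differed in VAX1. In CT1.0 it had 0.0638 and 0.0162 TPM in KO and 0.0937 and 0.0176 TPM in WT. In CT0.4 it had 4.83 and 5.75 TPM in KO and 4.78 and 2.95 TPM in WT, so the 2 labels did not overlap in either genotype. WT CT1.0 against WT CT0.4, VAX1 was the 1 gene of 7 called lower, with 10.1% of all genes, at -2.18 (SE 0.23, adjusted p = 3.39e-06). In CT0.4 VAX1 made up 46.1 and 38.8% of the summed TPM of the 7 genes in KO and 33 and 23% in WT. CT0.4 against IWP2, VAX1 differed by -0.60 in KO (adjusted p = 0.0916) and -0.50 in WT (adjusted p = 0.197), neither called.

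The other genes stayed low in CT at day 8. SIX3 ran from 0.2 to 0.531 TPM in KO CT0.4, from 0.528 to 0.986 TPM in WT CT0.4, from 0.027 to 0.142 TPM in KO CT1.0 and from 0.145 to 0.155 TPM in WT CT1.0. WT CT1.0 had RAX listed at 0 in both lines, and KO and WT CT1.0 had SIX6 at 0. HESX1 kept 2.61 to 5.8 TPM over the 8 CT libraries. CT0.4 against IWP2, 6 of 7 genes were called lower in KO (7.89% of all genes) and in WT (5.89%). CT1.0 against IWP2, all 7 were, in KO (16.7%) and in WT (7.82%). For SIX3, RAX and SIX6, which passed the filter only through IWP2 libraries, this direction was again largely set in advance. FEZF1 differed from IWP2 by -7.38 in KO CT0.4, -6.02 in WT CT0.4, -5.76 in KO CT1.0 and -6.72 in WT CT1.0. HESX1 differed from IWP2 by -1.46 in KO CT0.4, -1.35 in WT CT0.4, -1.53 in KO CT1.0 and -1.69 in WT CT1.0.

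Of these day 8 calls, some of HESX1 and SIX6 were lost when a line was left out. HESX1 in WT CT0.4 was lost without WT line 1 (-0.83, adjusted p = 0.518) or line 2 (-1.86, 0.0857), and in WT CT1.0 without line 1 (-1.64, 0.166) or line 2 (-1.73, 0.134). HESX1 in KO CT0.4 was lost without KO line 26 (-1.36, 0.137) or line 48 (-1.56, 0.0902) and in KO CT1.0 without line 48 (-1.12, 0.186). SIX6 in WT CT0.4 was lost without WT line 1 (-1.13, 0.305) or line 2 (-0.77, 0.483), and in WT CT1.0, where it was listed at 0, without line 1 (0.302) or line 2 (0.328). SIX6 in KO CT0.4 was lost without WT line 1 (0.0675) or WT line 2 (0.0676), which are outside that comparison and left it at -1.12, or without KO line 26 (-0.69, 0.0702). SIX6 in KO CT1.0 was called without each line. SIX6 in WT CT0.4 was also lost under median-ratio scaling (0.0549) and without the 4 WT day 4 CT libraries (0.0545). SIX3, RAX, LHX2 and FEZF1 kept their day 8 calls without each line.

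KO against WT, no gene of the 7 was called in IWP2 cultures, in ES, or in CT0.4 at day 4. The share of all genes called was 0.0430% in IWP2 at day 4, 0.0609% in IWP2 at day 8, 0.219% in ES and 4.24% in CT0.4 at day 4. At an unadjusted p under 0.05 in limma there was 1 gene in ES, HESX1 (0.80, adjusted p = 0.44), and 1 in IWP2 at day 4, SIX6 (0.73, adjusted p = 0.485). Without KO line 48 SIX6 was called higher (1.24, adjusted p = 0.023), in a fit where KO line 26, the 32.6 TPM library, stood alone and was taken to vary like the other groups. In IWP2 at day 8, VAX1 alone was under 0.05 unadjusted (0.49, adjusted p = 0.98). The shares of all genes given here and below are of called genes, and none was computed at an unadjusted p under 0.05. In CT0.4 at day 4, 2 genes were under 0.05 unadjusted, SIX3 (-0.65, adjusted p = 0.123) and FEZF1 (-0.60, adjusted p = 0.226), and HESX1 was at -0.68 (adjusted p = 0.331). Both KO libraries lay below both WT libraries for SIX3, FEZF1 and HESX1 alike. The share of all genes whose libraries separate in this way was not computed, here or below. The intervals of uncalled genes leave room for change, such as -0.61 to 0.36 for SIX3, -0.66 to 0.55 for RAX and -0.89 to 0.52 for LHX2 in IWP2 at day 4. The median log2 change of the 7 genes was -0.06 in IWP2 at day 4 and 0.02 in IWP2 at day 8, beside 0.00 over all genes in both.

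**Figure D3:**
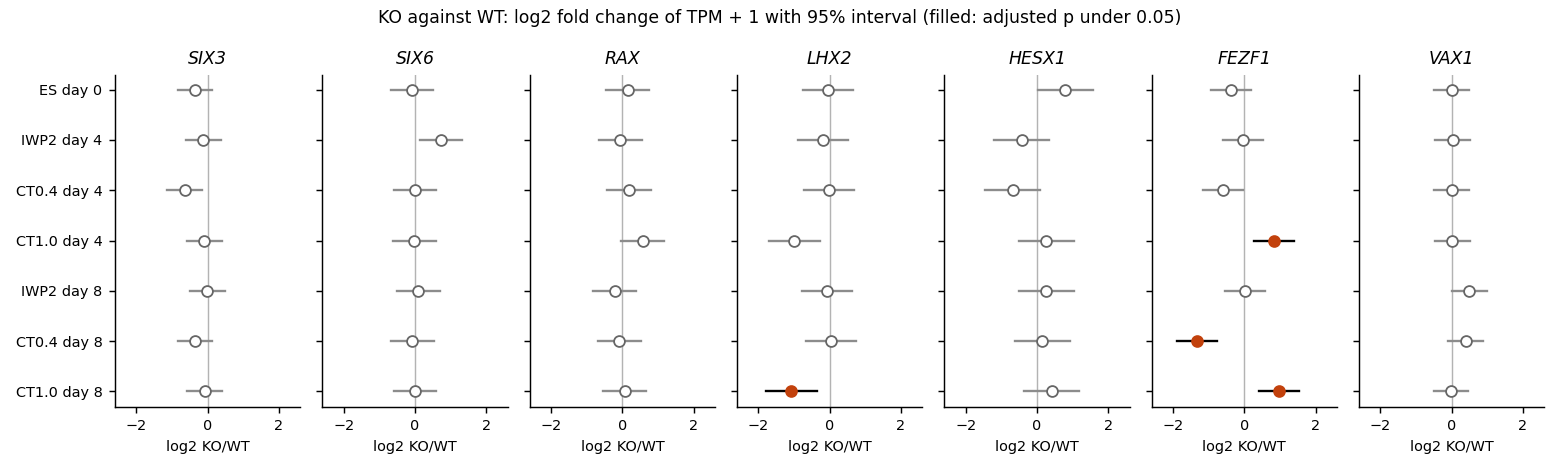
KO against WT for each gene (panels) in each culture (rows): log2 fold change of TPM + 1 with its 95% interval, filled where the adjusted p was under 0.05. FEZF1 is called in 3 CT cultures, upward in CT1.0 at days 4 and 8 and downward in CT0.4 at day 8, and LHX2 is called downward in CT1.0 at day 8.

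In the CT cultures KO and WT differed in FEZF1, in opposite directions under CT1.0 and CT0.4. At day 8 in CT1.0, FEZF1 had 5.64 and 2.71 TPM in KO and 1.45 and 1.6 TPM in WT. Both KO libraries lay above both WT libraries, and the log2 fold change was 0.98 (SE 0.26, adjusted p = 0.0196), the 1 call upward of 7 where 4.34% of all genes were called higher. At day 8 in CT0.4, FEZF1 had 0.716 and 0.528 TPM in KO and 2.92 and 3.27 TPM in WT. Here both KO libraries lay below both WT libraries, and the log2 fold change was -1.34 (SE 0.26, adjusted p = 0.031), the 1 call of 7 where 0.258% of all genes were called lower. The difference of these effects, CT1.0 minus CT0.4, was 2.31 (SE 0.37, 95% interval 1.52 to 3.10, adjusted p = 0.00329). FEZF1 was the 1 gene of 7 called higher for that difference, where 1.55% of all genes were. WT FEZF1 was lower in CT1.0 than in CT0.4 (-0.70, adjusted p = 0.0957) without being called, though it was called without KO line 26 (0.0148) or 48 (0.0146), and both KO CT1.0 libraries lay above both KO CT0.4 libraries.

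At day 4 FEZF1 showed the same directions at higher levels. In CT1.0 it had 20.9 and 10.9 TPM in KO and 9.77 and 6.69 TPM in WT. The log2 fold change was 0.83 (SE 0.26, limma adjusted p = 0.0435). This was the 1 call of 7, a count near the share of all genes called higher, 12.4%. In CT0.4, as given above, KO lay below WT without a call. The difference CT1.0 minus CT0.4 was 1.43 (95% interval 0.64 to 2.22, adjusted p = 0.114), with 0 of 7 genes called where 0.297% of all genes were and 1 of 7, FEZF1, at an unadjusted p under 0.05 in limma. Without KO line 48 it was 1.60 (adjusted p = 0.0174). RAX in CT1.0 at day 4, high in KO line 48 alone, differed by 0.57 (adjusted p = 0.208), and was called without KO line 26 (1.07, adjusted p = 0.0202). Under median-ratio scaling the calls over all genes for KO against WT in CT1.0 at day 4 split into 1764 higher and 2537 lower, against 3453 higher and 694 lower as deposited. At day 8 in CT1.0 that scaling gave 1635 higher and 1887 lower, against 1210 higher and 2779 lower.

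**Figure D4:**
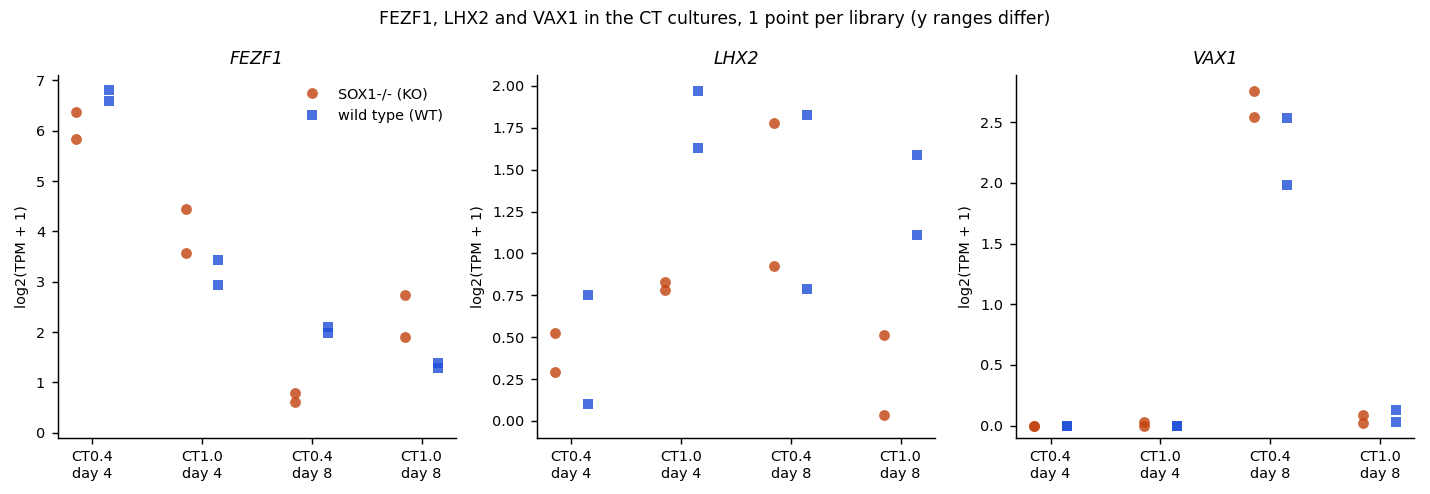
FEZF1, LHX2 and VAX1 in the CT cultures, as log2(TPM + 1) with 1 point per library, KO (circles) left of WT (squares). FEZF1 in KO lies below WT in CT0.4 and above WT in CT1.0 at both days, LHX2 in KO lies below WT in CT1.0, and VAX1 is present in CT0.4 at day 8.

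LHX2 was the other gene called between KO and WT, in CT1.0 at day 8 alone. At day 8 it had 0.0239 and 0.427 TPM in KO CT1.0 and 2.01 and 1.16 TPM in WT CT1.0. The log2 fold change was -1.08 (SE 0.34, limma adjusted p = 0.0403). This was the 1 call downward of 7, a count near the share of all genes called lower, 9.96%. At day 4 it had 0.778 and 0.722 TPM in KO CT1.0 and 2.92 and 2.09 TPM in WT CT1.0, with -0.99 (SE 0.34, adjusted p = 0.057), and -1.18 (adjusted p = 0.0213) under median-ratio scaling. The KO libraries lay below the WT libraries at both days. In CT0.4 the LHX2 libraries overlapped, at 0.895 and 2.43 TPM in KO and 2.54 and 0.729 TPM in WT at day 8. The difference of the effect, CT1.0 minus CT0.4 at day 8, was -1.12 (95% interval -2.12 to -0.12, adjusted p = 0.195). All these LHX2 levels are under 3 TPM, against 99 TPM or more in every IWP2 library. VAX1, present in CT0.4 at day 8, differed there between KO and WT by 0.39 (95% interval -0.10 to 0.88, adjusted p = 0.65).

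These calls were small and rested on few libraries. FEZF1 in CT1.0 at day 8 was lost without WT line 1 (0.93, adjusted p = 0.273), WT line 2 (1.02, 0.193) or KO line 26 (0.56, 0.145), and in CT0.4 at day 8 without WT line 1 (-1.40, 0.288) or WT line 2 (-1.27, 0.545). The difference at day 8 was lost without WT line 1 (2.33, 0.15) or WT line 2 (2.29, 0.146), at about the same size. FEZF1 in CT1.0 at day 4 was lost without WT line 1 (1.07, 0.191), WT line 2 (0.59, 0.463) or KO line 26 (0.39, 0.25). It was also lost with a pseudocount of 0.1 (0.90, 0.0551), with no filter (0.0699), with a robust variance (0.0589) and under median-ratio scaling (0.59, 0.162). LHX2 in CT1.0 at day 8 was lost without WT line 1 (-0.84, 0.288), WT line 2 (-1.32, 0.0881), KO line 26 (-0.84, 0.361) or KO line 48 (-1.32, 0.0804), and with no filter (0.0609). The counts over all genes also moved with single lines. KO against WT in CT1.0, without WT line 1, 855 genes were called higher at day 4, against 3453 with every library, and 230 lower at day 8, against 2779.

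Other cell type markers moved between the same groups. In CT1.0 at day 8, neural progenitor markers (all 6 at 1 TPM or more in some library) summed to 554 to 867 TPM in KO and 1534 to 1639 TPM in WT, and neuronal markers (TUBB3, ELAVL4, DCX, NHLH1, STMN2, all 5 likewise) to 135 to 313 TPM in KO and 606 to 737 TPM in WT. Neural crest markers (SOX10, FOXD3, TFAP2A, SNAI2, PAX3, SOX9) summed to 78.6 to 96.1 TPM in KO and 32.5 to 38.2 TPM in WT there, and to 237 to 253 TPM in KO and 175 to 209.8 TPM in WT in CT0.4 at day 8. In CT0.4 at day 8, neural progenitor markers summed to 1038 to 1040.2 TPM in KO and 1267 to 1464 TPM in WT, and pigment cell markers to 88.9 to 93.8 TPM in KO and 116 to 166 TPM in WT. In CT1.0 at day 4, neural progenitor markers summed to 603 to 797 TPM in KO and 981 to 1089.8 TPM in WT, neuronal markers to 86.2 to 96.6 TPM in KO and 122 to 127 TPM in WT, and neural crest markers to 56.9 to 61.3 TPM in KO and 38.5 to 41.6 TPM in WT. The part of these markers in the FEZF1 and LHX2 values was not tested. Placode and surface ectoderm markers, 12 in all, summed to 75.9 to 94.3 TPM in KO CT1.0 and 48.9 to 57.4 TPM in WT CT1.0 at day 8. Only 5 of the 12 reached 1 TPM in each group, and the sum was higher in ES, at 465 to 533 TPM. At day 8, 6 of 6 neural crest markers reached 1 TPM in KO CT1.0 and in KO CT0.4, but 4 in WT CT1.0 and 3 in WT CT0.4. Of the pigment cell markers, 3 of 5 did so in CT0.4 at day 8. In CT1.0 at day 4, 3 of 5 neuronal markers did so, and 4 of 6 neural crest markers in KO and 3 in WT.

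The KO effect in CT0.4 or CT1.0 was also set against that in IWP2 at day 8. For FEZF1 the difference was -1.36 for CT0.4 (95% interval -2.15 to -0.57, adjusted p = 0.343) and 0.96 for CT1.0 (0.17 to 1.75, adjusted p = 0.174, or 1.25 and 0.0341 without KO line 48). No gene of the 7 was called in either, where 0.147% and 3.22% of all genes were, and 1 and 1 had an unadjusted p under 0.05 by limma, FEZF1 in both. Between day 8 and day 4 in IWP2 the KO effect was called for 0 of 7, with 0.0537% of all genes called and 0 at an unadjusted p under 0.05. Both differences at day 8 use the same IWP2 libraries.

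The SIX3 locus carried other transcripts with the same pattern. LINC01833, a long RNA gene on the opposite strand whose near end lies 2699 bases upstream of SIX3, had 436 and 389 TPM in KO IWP2 at day 4 and 466 and 441 TPM in WT IWP2 at day 4. SIX3-AS1, also on the opposite strand and 25 bases from SIX3, had 35.8 and 24.9 TPM in KO and 30.7 and 36.5 TPM in WT there. Outside IWP2, LINC01833 was at 5.62 TPM or less and SIX3-AS1 at 0.765 TPM or less in all 20 libraries. At day 8 in IWP2 LINC01833 had 349.9 and 215 TPM in KO and 237 and 240.2 TPM in WT, and SIX3-AS1 63.8 and 38.4 TPM in KO and 45.3 and 53.6 TPM in WT. KO line 26 was above KO line 48 for SIX3, LINC01833 and SIX3-AS1 at that day. Short annotated segments named Six3os1 within the span of LINC01833 were also high in IWP2, with Six3os1_1 at 751 and 849.9 TPM in KO and 904 and 804 TPM in WT at day 4.

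**Figure D5:**
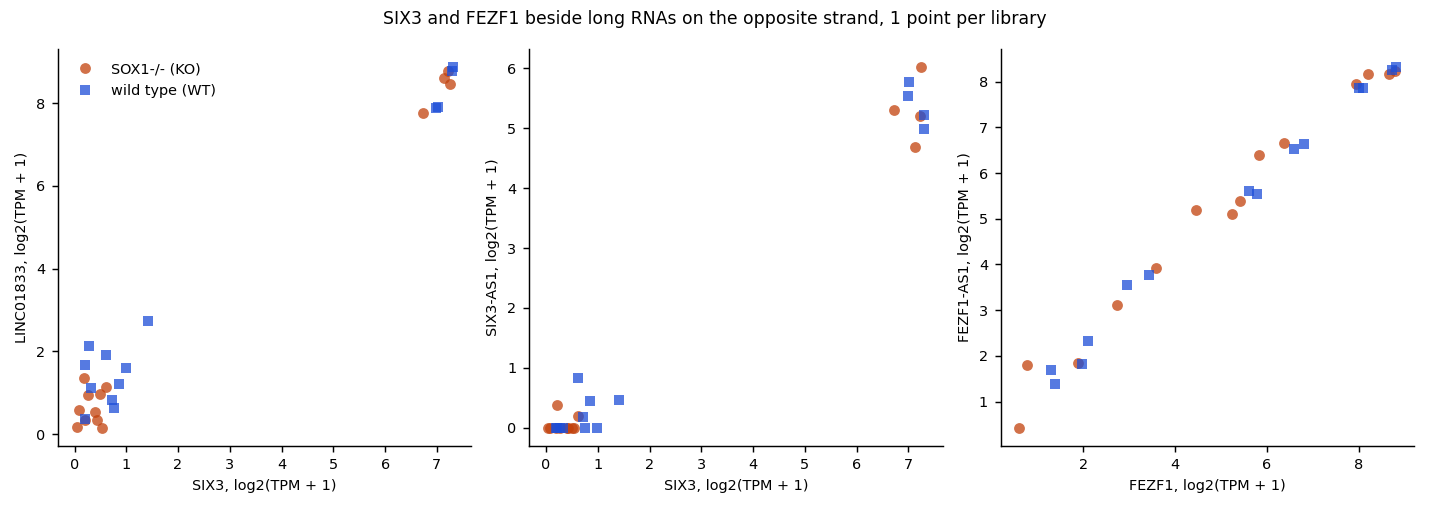
SIX3 against LINC01833 and SIX3-AS1, and FEZF1 against FEZF1-AS1, each as log2(TPM + 1) with 1 point per library (KO circles, WT squares). SIX3 and its neighbours split the 8 IWP2 libraries from the other 20, while FEZF1 and FEZF1-AS1 fall along 1 line over the whole range.

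FEZF1-AS1, a long RNA gene on the strand opposite to FEZF1, overlaps it over 6420 bases. Its levels followed those of FEZF1, with 287 and 298 TPM in KO IWP2 and 317 and 305 TPM in WT IWP2 at day 4. Over the 14 group means the Pearson r of log2(TPM + 1) was 0.996, and the groups stood in the same order for both. In CT1.0 at day 8 it had 7.66 and 2.58 TPM in KO and 2.24 and 1.6 TPM in WT, and in CT0.4 2.5 and 0.348 TPM in KO and 2.51 and 3.99 TPM in WT. Its KO effect, CT1.0 minus CT0.4 at day 8, was 1.89 (95% interval 0.64 to 3.14, adjusted p = 0.0779). The labels do not say whether strand was used in counting, so reads of FEZF1 and FEZF1-AS1 may not be fully told apart, and the same holds for LHX2 and the antisense genes annotated within it.

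Likeness was ranked among 11517 named genes with a group mean of at least 10 TPM, with the 7 genes themselves left out. Among these, LINC01833, SIX3-AS1 and WEE1, a cell cycle kinase gene, were most like SIX3. Their Pearson r over the 14 group means was 0.995, 0.994 and 0.960, beside 0.98 of SIX3 with RAX and with LHX2. LINC01833 and SIX3-AS1 also came first for RAX (0.977 and 0.962) and LHX2 (0.980 and 0.977), followed by WEE1 (0.956) for RAX and HS6ST2 (0.947) for LHX2. HESX1 was closest to LRAT (0.941), a retinol-esterifying enzyme gene, CHST7 (0.931) and RHOH (0.925). FEZF1 was followed after FEZF1-AS1 by SPRY1 (0.944), an antagonist of receptor kinase signalling, and MBTD1 (0.939). SIX6 was closest to C8orf76 (0.952), SEMA6A-AS1 (0.937) and SLITRK1 (0.929), and VAX1 to LUM (0.950), with CTDSPL (0.943) also among its 3 closest. By Spearman correlation the order changed for most of these genes, and most for SLITRK1, which ranked 4151 beside SIX6 (rho 0.350). LINC01833 ranked 11 beside SIX3, 1800 beside RAX and 397 beside LHX2. SIX3-AS1 ranked 142, 861 and 1868 beside these in turn, and LUM ranked 1314 beside VAX1. Only FEZF1-AS1 and MBTD1 beside FEZF1, and RHOH and CHST7 beside HESX1, stayed within the first 3.

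The wider sets had called genes in both directions. Of 18 other eye and optic genes 9 were tested, and CT0.4 against IWP2 at day 8 in WT called 3 higher (LHX9, PAX6, ALDH1A3) and 2 lower, VAX2 among them. CT1.0 against IWP2 at day 8 in WT called 2 of them higher (VAX2, VSX1) and 2 lower, OTX2 among them. Of 16 forebrain genes 12 were tested, with 7 higher and 3 lower in WT CT0.4 and 2 higher and 5 lower in WT CT1.0, both against WT IWP2 at day 8. Over all genes tested, 6.29% were called higher and 5.89% lower in WT CT0.4, and 2.97% higher and 7.82% lower in WT CT1.0. More posterior genes, 14 of 16 tested, had 7 higher and 1 lower in WT CT0.4 and 8 higher and 0 lower in WT CT1.0. Secreted WNT antagonists, 11 of 13 tested, had 2 higher and 5 lower in WT CT0.4 and 1 higher and 4 lower in WT CT1.0. FRZB, SFRP1, CER1 and SHISA2 were among those lower in both, which share the same WT IWP2 libraries. The sets share some genes, such as BARHL1 in both the forebrain and the posterior set.

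KO against WT in IWP2, 0 genes of these 4 sets were called at day 4 or day 8. In CT0.4 at day 8, where 0.158% of all genes were called higher and 0.258% lower, the eye set had 0 called, the WNT antagonists 1 lower (SFRP2) and the posterior set 2 lower (BARHL1, WNT8B). The forebrain set there had 1 gene higher in KO, DLX2 (1.62, adjusted p = 0.0141), and 5 lower, among them BARHL2, BARHL1, EMX2 and LHX5, with a median log2 change of -1.17 over its 12 tested genes beside 0.01 over all genes. EMX2, a dorsal forebrain factor, was higher in KO CT1.0 (1.40, adjusted p = 0.0117) and lower in KO CT0.4 (-1.72, adjusted p = 0.0329) at day 8, the directions that FEZF1 took. OTX2, a forebrain and midbrain factor, was higher in KO CT1.0 at day 8 (3.21, adjusted p = 5.48e-05) and not called in CT0.4 (-0.20, adjusted p = 0.973). PAX6, an eye and forebrain factor, was lower in KO CT1.0 at day 8 (-1.60, adjusted p = 0.0052), in the direction of LHX2. In KO CT1.0 at day 8 the eye set had 2 called higher and 4 lower, the forebrain set 2 and 3, the WNT antagonists 2 and 4, and the posterior set 6 and 1, beside 4.34% higher and 9.96% lower over all genes.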

How the data were processed

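RNA-seq of 28 libraries was used at gene level, as the TPM values the authors deposited. Per the submitters' processing notes, CASAVA 1.7, Salmon 0.8.2 and hg38 were involved, with no roles given. TPM keeps no read depth, so the depth is unknown and no counting interval is given. Genes at 1 TPM or more in at least 2 libraries were kept (27912), log2(TPM + 1) was computed, and limma 3.58.1 in R 4.3.3 was fitted to all 14 groups (14 residual and 2.76 prior degrees of freedom), with 28 contrasts and Benjamini-Hochberg adjustment over all genes within each. The procedure was tested on simulated data with independent normal noise, where changes were set only in genes of higher mean level. That test does not cover changes in genes near 0 TPM. All columns matched a sample. Line numbers recur across groups. Deviations of same-numbered WT libraries correlated at -0.0937 to 0.0783 (0 of 21 pairs of groups over 0.1). Those of KO libraries correlated at -0.0572 to 0.204 (8 of 21 over 0.1). The main fit held no pairing and treated libraries of a recurring line as independent, which the KO correlations do not fully bear out. A fit with the line as a block was run as an alternative. The labels do not assign sequencing platforms to libraries, so no batch was fitted. The 7 genes, the marker sets and the 4 wider gene sets (eye and optic, forebrain, posterior, secreted WNT antagonists) were chosen with earlier results of these data known. Genes were named by a rule: the 7 genes and SOX1, and up to 4 called genes of a wider set by fold change in a comparison. It also took the 3 genes outside the 7 with the highest Pearson correlation to each over the group means. Other genes named were chosen after their values were seen, and a few genes the rule picks are not reported here. The fit was repeated without each line, without the 4 WT day 4 CT libraries, with only the libraries compared, with the line as a block, with median-ratio scaling, with a robust variance, with no filter and with a pseudocount of 0.1.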

Additional observations from a re-analysis of the deposited data

Results flagged for a closer look

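FEZF1 was picked out because its KO effect differed between cultures by a test of the difference itself. At day 8 the log2 effect of KO against WT was 0.98 in CT1.0 and -1.34 in CT0.4, a difference of 2.31 (95% interval 1.52 to 3.10, limma adjusted p = 0.00329). KO and WT libraries did not overlap in either culture, at levels of 0.528 to 5.64 TPM. The share of all genes that separate in this way was not computed. The call was lost without WT line 1 (2.33) or WT line 2 (2.29).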

How the results depend on the processing

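Of 196 results (7 genes in 28 comparisons), 84 were called, 63 of them without each line in turn, and 0 calls reversed under any alternative. In fits without a line, a group left with 1 library was taken to vary like the other groups. The counts of the 7 genes called that moved by more than 1.5 times were as follows. With a pseudocount of 0.1 they were 0 for KO against WT in CT1.0 at day 4 (1 as reported) and 3 for WT CT1.0 against CT0.4 at day 8 (1). With no filter they were 0 for KO against WT in CT1.0 at day 4, 1 for KO against WT in CT1.0 at day 8 (2) and 1 for WT CT0.4 at day 4 against ES (2). A robust variance gave 0 for KO against WT in CT1.0 at day 4. With the line as a replicate block they were 2 for KO against WT in CT1.0 at day 4, where LHX2 was gained (adjusted p = 0.033), 2 for WT CT1.0 against CT0.4 at day 8, where FEZF1 was gained (0.0346), and 1 for WT CT0.4 at day 4 against ES, where SIX3 was lost (0.0596). The block also gained FEZF1 for WT IWP2 at day 8 against day 4 (0.0349). In KO, 8 of 21 pairs of groups had same-numbered lines correlated above 0.1. Fits on only the libraries compared, with 2 residual degrees of freedom (4 for differences of effects), called 3 for WT CT0.4 against IWP2 at day 8 (6), and 0 for all KO against WT comparisons, for WT CT1.0 against CT0.4 at either day, for KO CT0.4 and KO CT1.0 against IWP2 at day 4 (6 each), for KO CT1.0 against IWP2 at day 8 (7), for KO IWP2 at day 8 against day 4 (4) and for the KO effect in CT1.0 minus CT0.4 at day 8 (1). Over all 27912 genes these fits also called 0 for KO CT1.0 against IWP2 at day 4 (3855) and day 8 (5715), for KO IWP2 at day 8 against day 4 (2712) and for KO against WT in IWP2 at day 4 (12), CT0.4 at day 4 (1183) and CT1.0 at day 8 (3989), and 3 for KO CT0.4 against IWP2 at day 4 (1341), so in these comparisons the zeros are not particular to the 7 genes. In the other 4 KO against WT comparisons they called 119 to 334 genes, with 119 in CT0.4 at day 8 (116) and 334 in CT1.0 at day 4 (4147). They called 375 and 762 for WT CT1.0 against CT0.4 at days 4 and 8 (1807 and 3989). For the KO effect in CT1.0 minus CT0.4 at day 8 they called 95 (1285). In those comparisons the zeros of the 7 genes stood beside calls of other genes. Leaving out each line gave 0 to 1 for KO against WT in IWP2 at day 4, in CT1.0 at day 4, in CT0.4 at day 8 and in CT1.0 at day 8, for WT CT0.4 at day 4 against ES, and for the KO effect in CT1.0 minus CT0.4 at day 4 and at day 8 and CT1.0 minus IWP2 at day 8. It gave 1 for WT CT1.0 against CT0.4 at day 4 (3) and 1 to 2 at day 8. It moved the count over all genes by more than 1.5 times in 14 to 24 of 28 comparisons, depending on the line. Median-ratio scaling moved the split of higher and lower calls over all genes by more than 10 percentage points in 18 of 28 comparisons, and the median of all genes by over 0.1 in 5. With a pseudocount of 0.1, VAX1 was called for WT IWP2 at day 4 against ES (1.84, adjusted p = 0.00835) and SIX3 for WT CT1.0 against CT0.4 at day 8 (-1.72, 0.0332). The cause of these changes was not tested. Depth is unknown, so genes under 1 TPM carry a counting error that could not be given.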
